A study of Mus musculus with 16 samples.

Results

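Neutrophils of wild-type origin were sorted from the livers of mice given a CD40 agonist, and the RNA they held was profiled in 8 libraries, 1 from each of the mice numbered 2 to 9, out of 16 libraries in the whole study. They were chosen by their label of wild type alone. All mice were C57BL/6 and were mixed bone marrow chimeras: wild-type hosts received about 1000 cGy of irradiation and then equal parts of wild-type CD45.1+ and Ifngr1-/- CD45.2+ marrow, which had 8 weeks to reconstitute. Every mouse then carried MC38 tumours (a mouse colon carcinoma line) in the flank, received the CD40 agonist 1 week later, and gave its liver 2 days after that. CD40 is a receptor on antigen-presenting cells, and an agonist antibody against it activates them in place of the T cell ligand. The cells were sorted by CD45.1, CD45.2 and neutrophil markers that the labels do not name, so the wild-type neutrophils had matured in animals that also held receptor-deficient blood cells, within the liver tissue of the irradiated host. The Ifngr1-/- libraries of the same mice are not described here. No untreated mice, tumour-free mice or blood neutrophils belong to the group, so the values describe a single state. The labels state neither the age nor the sex of the mice.

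Neutrophils are short-lived granulocytes that leave the bone marrow as largely mature cells. They carry their granule proteins ready made, and the transcripts for successive granule types are made at successive stages of marrow development and then shut off. Mature neutrophils still transcribe genes for cytokines, chemokines and receptors when they meet microbial products, cytokines or adhesion signals. They hold little RNA per cell, and the labels give 13 PCR cycles from 1 ng of RNA, a number raised for neutrophil RNA.

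The levels below are on 1 of 2 scales: CPM, a gene's counts relative to the total of its library in the usual unit, scaled between the 8 libraries by the trimmed mean of M-values (TMM), and CPM per kb of the gene's merged exons. Only the latter is used to compare 1 gene with another. Values are means ± SD over the 8 libraries (n = 8 mice) unless stated otherwise, a gene is called detected in a library with at least 10 counts, and a gene with no count in any of the 8 libraries has an upper limit of 0.0221 CPM (3 counts over the 8 libraries together, a limit that covers counting error only). The libraries held 13073700 to 21725300 counts (16948600 ± 3274790, to 6 digits) and 9510 to 10640 detected genes. Pairwise correlations of log2 CPM between libraries ran from 0.852 to 0.954. The libraries of mice 5 and 9 stood apart: their median correlation with the other libraries was 0.891 and 0.859, against 0.909 to 0.942 for the rest, and they lay alone at 40.0 and 43.1 on the first principal component, where the others ran from -25.4 (mouse 8) to 10.96 (mouse 4). No 2 libraries held identical values. Where a mean rests on mice 5 and 9, the value without them follows it. Since whole sorted samples were measured, fewer cells of a type and less RNA per cell cannot be told apart.

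Neutrophil genes were set beside the label. All 30 neutrophil identity genes were detected in all 8 libraries, against 6950 of all 54532 identifiers. The list was chosen with earlier results of these data known, so this count does not test the label. The summed level of the list ran from 76334 to 97590.3 CPM. The antimicrobial calcium-binding pair S100a8 and S100a9 stood at 19277 ± 5205 and 22045 ± 4925 CPM per kb. S100a9 ranged from 7346 CPM in mouse 3, with a median of 11724, to 14617 in mouse 5. Csf3r, the receptor for the granulocyte growth factor G-CSF, ranged from 3795 CPM in mouse 2, with a median of 4867, to 5265 in mouse 3, and mouse 2 lay below the other 7, the lowest of which stood at 4564 CPM. Retnlg, a resistin-like protein made by mouse granulocytes, had 3455 ± 679 CPM, and Fpr1, the receptor for bacterial formyl peptides, 1722 ± 285 CPM. Ifngr1, the interferon gamma receptor chain that the Ifngr1-/- marrow lacks, was detected in every library and ranged from 221 CPM in mouse 8, with a median of 299, to 340.5 in mouse 6, so each library labelled wild type held its transcript.

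Per length, the 30 most abundant nuclear protein-coding genes came from a few classes. Ftl1, the ferritin light chain, was first at 22410.5 ± 2344 CPM per kb. S100a9 and S100a8 followed, then B2m at 9210.4 ± 1929.7 and H2-D1 at 8998 ± 2211 CPM per kb, which encode the light chain and a heavy chain of MHC class I. Lyz2 (lysozyme) had 8359.5 ± 2003 and Actb (actin) 7882 ± 873 CPM per kb, differences that lie within the spread of the libraries. Ifitm3, an interferon-induced membrane protein that blocks virus entry, had 6242 ± 1491 CPM per kb and Chil1, a chitinase-like secreted protein, 5875 ± 851.

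A second rank held adaptor, protease and cytokine genes. Tyrobp and Fcer1g, signalling adaptors of activating and Fc receptors, had 5776 ± 1141 and 3138 ± 561 CPM per kb, and Ctsd, a lysosomal protease, 4921 ± 472. Il1b, the only cytokine gene of the 30, had 4044 ± 894 CPM per kb and was fourteenth. G0s2, an inhibitor of triglyceride breakdown, had 3413 ± 477 CPM per kb, and Ninj1, a membrane protein that ruptures dying cells, 2433 ± 597. The 30 genes kept 29 or 30 of their members when any 1 library was left out and all 30 without mice 5 and 9. Undivided by length, the ranking shared 19 of them.

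**Figure D1:**
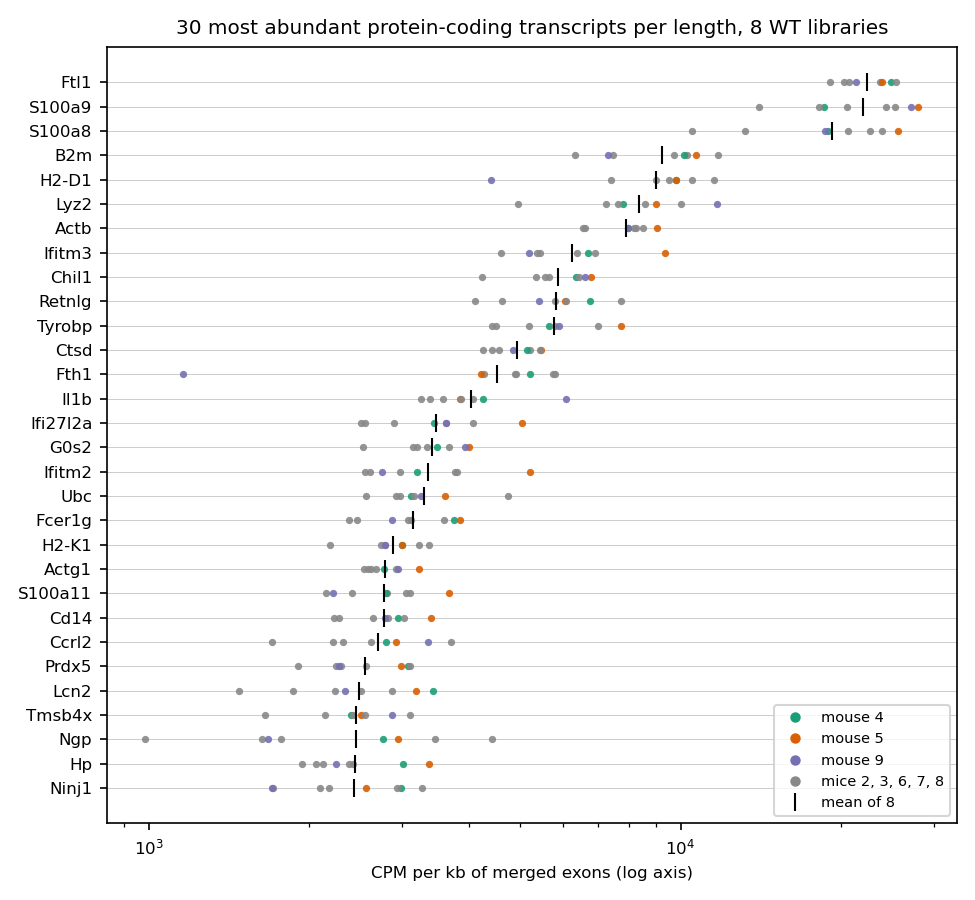
The 30 nuclear protein-coding genes with the highest mean level per length. The horizontal axis gives CPM per kb of merged exons on a log axis, small points are the 8 libraries and the marker their mean, so that Ftl1, S100a9 and S100a8 sit at the top and the low points of mouse 9 for H2-D1 and Fth1 stand clear of the other 7 libraries.

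Few genes carried a large share of the counts. The 10 most abundant genes of each library held 16.5 ± 0.678% of its counts, the 100 most abundant 46.0 ± 1.55%, and 106 to 139 genes held the first 50% of each library. Protein-coding genes took 96.8 ± 0.43% of counts, long non-coding RNAs (intergenic, antisense and related classes) 1.21 ± 0.193% and pseudogenes 1.17 ± 0.191%. The 13 mitochondrial mRNAs took 0.595 ± 0.272%, from 0.294% in mouse 8 to 1.19% in mouse 4, and the 83 ribosomal protein genes 0.228 ± 0.0292%. In all, 6950 genes were detected in all 8 libraries, 6297 of them protein-coding, while 40539 of 54532 annotated identifiers were detected in none. Among the non-coding entries, the long intergenic RNA Gm26809 stood at 4037 ± 1022 CPM and the mitochondrial ribosomal RNA mt-Rnr2 at 1622 ± 702 CPM, both named after their values were seen.

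Genes of the later granule types were abundant and those of the first type sparse. Of the 6 primary granule genes, which promyelocytes transcribe, only Prss57 was detected in all 8 libraries, at 3.96 ± 1.61 CPM. Elane (neutrophil elastase) had 0.478 ± 0.292 and Mpo (myeloperoxidase) 0.1 ± 0.107 CPM per kb. Of 16 secondary and tertiary granule genes, 15 were detected in all 8 libraries, and the list summed to 24282 to 44801 CPM. Per length, Lyz2 was followed by Lcn2 (which binds bacterial iron carriers) at 2490.2 ± 655 CPM per kb, Ngp (neutrophilic granule protein) at 2455 ± 1140.4, Hp (haptoglobin) at 2443 ± 496 and Mmp9 (a gelatinase of tertiary granules) at 1851 ± 203.

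Within the later granule list the library values were uneven between genes. Ngp ranged from 1205 CPM in mouse 3, with a median of 2768, to 5408 in mouse 2, and Ltf (lactoferrin) from 287 CPM in mouse 3, with a median of 551, to 1485 in mouse 2, while Lyz2 ranged from 6509.6 CPM in mouse 3, with a median of 10757, to 15401 in mouse 9. Ltf, Camp and Olfm4, made in marrow myelocytes and named here after their values were seen, stood at 656, 256 and 94.6 CPM. Fcnb was the 1 member not detected in all libraries (0.317 ± 0.344 CPM). Proliferation genes were low: of 14 cell cycle genes, Pcna at 13.0 ± 3.86 CPM and Mcm5 at 10.5 ± 4.15 CPM were the only members with a mean of at least 10 CPM, and 6 of the 14 were detected in all libraries.

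All 8 phagocyte oxidase genes were detected in all 8 libraries. Cyba, the small membrane subunit, had 1871 ± 319.9 CPM per kb and its catalytic partner Cybb 140.4 ± 35.005. Rac2, the small GTPase that switches the complex on in neutrophils, had 3823 ± 426 CPM. Ncf1, a cytosolic subunit, ranged from 1432 CPM in mouse 9, with a median of 2729.5, to 2961 in mouse 7, and mouse 9 was alone below the other 7.

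Of 20 glycolysis genes, 19 were detected in all libraries. Aldoa, which splits the phosphorylated hexose, had 983 ± 83.4 CPM per kb, Gapdh 960.1 ± 113 and Pkm 771 ± 64.7. Slc2a3 and Slc2a1, glucose transporters, stood at 583 and 428 CPM, and Pfkm, the muscle form of phosphofructokinase, at 0.542 CPM (named after their values were seen). Of 12 iron-handling genes 9 were detected in all libraries. Ftl1 ranged from 25547 CPM in mouse 2, with a median of 30178, to 34064 in mouse 6. The ferritin heavy chain, Fth1, ranged from 4022 CPM in mouse 9, with a median of 16997, to 20182 in mouse 6, and the lowest of the other 7 libraries stood at 14608 CPM. Its mean was 15706 ± 5147 CPM, and 17836 ± 2025 CPM without mice 5 and 9. Slc11a1, the phagosomal metal pump, had 1239.6 ± 128 CPM.

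Of 53 genes for interleukins, TNF family members and growth factors (52 matched in the table), 23 were detected in all 8 libraries and 17 had no count. Il1b, a main inflammatory cytokine of myeloid cells, was the highest per length at 4044 ± 894 CPM per kb. It ranged from 6196 CPM in mouse 2, with a median of 7355, to 11619 in mouse 9, with mouse 9 above the other 7. Its natural antagonist Il1rn had 846 ± 134 CPM per kb and ranged from 3597 CPM in mouse 2, with a median of 4633, to 6081 in mouse 9. Tnf stood at 898 ± 167 CPM per kb, and Osm (oncostatin M) at 624.8 ± 86.2. Tnf ranged from 1096 CPM in mouse 7, with a median of 1512, to 1769 in mouse 9, so no library lacked these transcripts.

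Chains of the IL-12 family and other cytokines follow. Ebi3, a chain shared by 2 cytokines of the IL-12 family, had 553 ± 79.4 CPM, and its IL-27 partner Il27 47.8 ± 10.7 CPM. The IL-12 chains Il12a and Il12b stood at 18.1 and 1.05 CPM and the IL-23 chain Il23a at 34.6 (these chains were named after their values were seen). Il6 had 0.0595 CPM. The 17 genes with no count included Ifng, Ifnb1, Il17a, Csf2, Il2, Fasl and Cd40lg, the CD40 ligand, each therefore below 0.0221 CPM (these and Il6 were also named after their values were seen). Ltb, Csf1, Tgfb1 and Gdf15 are described with the genes that varied.

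Of 33 chemokine genes 14 were detected in all 8 libraries and 7 had no count. Ccl4 and Ccl3, macrophage inflammatory proteins, had 2369.8 ± 449 and 1451 ± 302 CPM per kb. Cxcl2, a ligand of the neutrophil receptor CXCR2, had 1325 ± 256 CPM per kb and ranged from 2245 CPM in mouse 2, with a median of 2546, to 3929.8 in mouse 9. Cxcl10, an interferon-induced attractant of T cells, had 618 ± 176 CPM per kb and ranged from 756 CPM in mouse 2, with a median of 1361, to 1934 in mouse 6. Its relatives at the same receptor, Cxcl9 and Cxcl11, stood at 39.6 and 23.2 CPM, the monocyte chemokine Ccl2 at 2.98 CPM, and the granulocyte attractant Cxcl5 had no count (these 4 were named after their values were seen).

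On the receptor side, 34 of 64 cytokine receptor genes were detected in all 8 libraries. Csf3r was the highest per length at 1322 ± 125 CPM per kb, followed by Tnfrsf1b (TNF receptor 2) at 668 ± 116 and Il2rg (the common gamma chain) at 491 ± 42.3. Tnfrsf1a (TNF receptor 1) had 300.5 ± 45.2 CPM per kb. Il1r2, the decoy receptor for IL-1, had 402 ± 55.8 CPM per kb, and the signalling receptor Il1r1 0.00536 ± 0.011. Csf1r, better known from macrophages, had 1436 ± 169 CPM and ranged from 1116 CPM in mouse 2, with a median of 1453, to 1607 in mouse 5.

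Cd40, the target of the agonist, ranged from 48.5 CPM in mouse 2, with a median of 90.4, to 128 in mouse 6 (87.6 ± 29.3 CPM), and was detected in all 8 libraries. The chains of the GM-CSF, IL-4 and IL-10 receptors, Csf2rb, Il4ra and Il10rb, stood at 960.2, 642 and 411 CPM. Il7r, Il23r, Epor, Il22ra1 and Tnfrsf17 had no count. Cd40 and the receptors of these last sentences were named after their values were seen.

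Chemoattractant receptors included 18 of 37 detected in all libraries. Ccrl2, which binds chemerin without signalling, was the highest at 2705 ± 640.1 CPM per kb, before C5ar1 (the complement C5a receptor) at 1578 ± 155 and Fpr1 at 1301 ± 215. Cxcr2, which brings neutrophils out of the marrow, ranged from 835 CPM in mouse 8, with a median of 946, to 1078 in mouse 9, and Cxcr4, which retains them there, ranged from 119.9 CPM in mouse 2, with a median of 211, to 276 in mouse 9. Ccr1 stood at 465 CPM, Cxcr1 at 3.78 and Ccr2 at 0.812 CPM. Cxcr2, Cxcr4 and these last 3 were named after their values were seen.

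**Figure D2:**
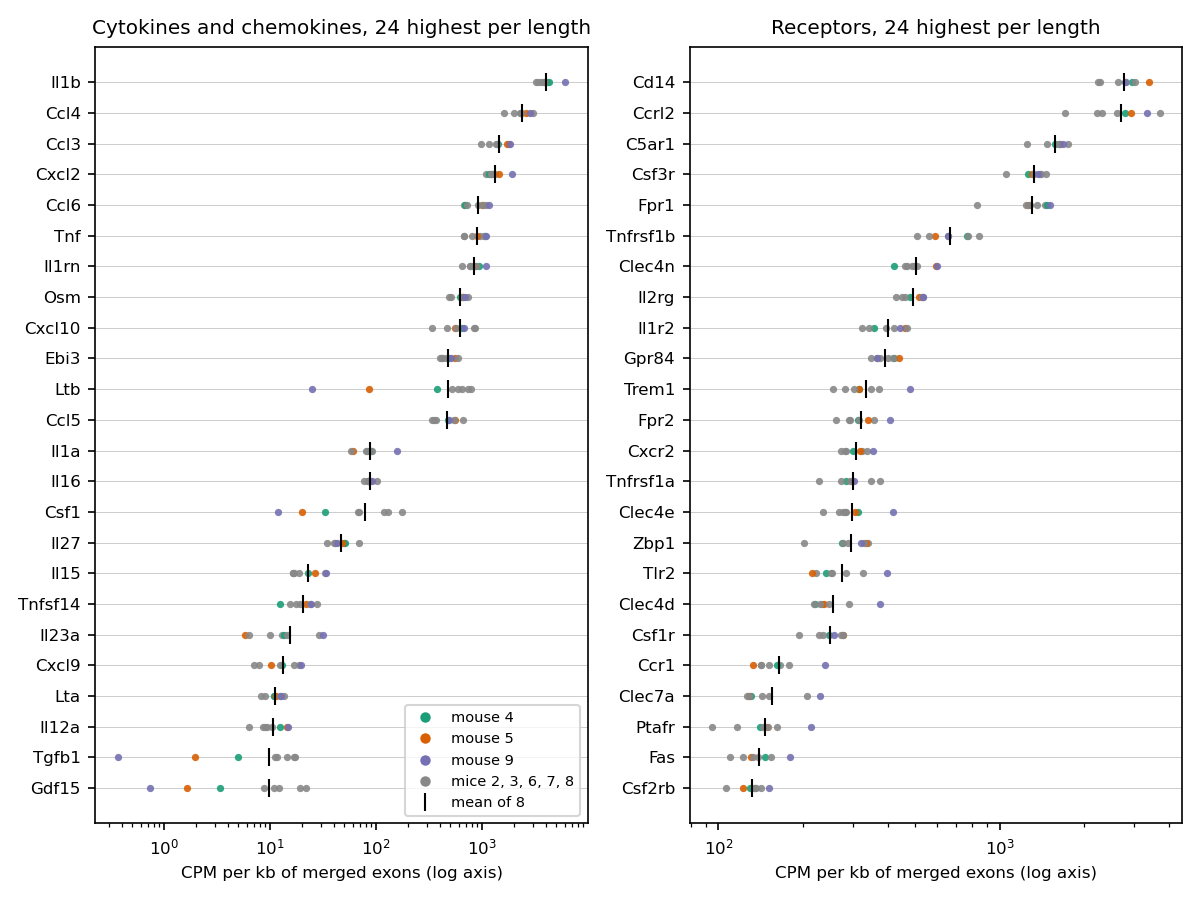
Levels of cytokine, chemokine and receptor genes in the 8 libraries. The axis gives CPM per kb of merged exons on a log axis, points are libraries and the marker their mean, so that Il1b, the Ccl3 and Ccl4 pair and Csf3r stand high in every mouse.

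Microbial sensing genes were widely present, with 25 of 33 pattern receptors detected in all libraries and 21 at a mean of at least 10 CPM. Cd14, the lipopolysaccharide co-receptor, had 2767 ± 385 CPM per kb and ranged from 3872 CPM in mouse 3, with a median of 4855, to 5892 in mouse 5. The signalling receptor Tlr4 and its partner Ly96 had 85.9 ± 31.4 CPM and 30.5 ± 7.92 CPM. Tlr2, for bacterial lipoproteins, had 826 ± 186 CPM and Tlr13, for bacterial ribosomal RNA, 399 ± 84.1 CPM. Tlr9 stood at 0.21 CPM, Tlr3 at 0.0519, and Tlr11 had no count. The Toll-like receptor genes and Ly96 were named after their values were seen. The C-type lectins Clec4n (dectin-2) and Clec4e (Mincle) had 716 ± 89.1 CPM and 1479 ± 267 CPM.

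Adhesion and Fc receptor genes were detected in all libraries for 22 of 28 members. Fcgr3, a low-affinity IgG receptor, had 1122 ± 84.8 CPM. Icam1, an adhesion ligand that resting neutrophils hold at a low level, had 3511 ± 799.6 CPM and ranged from 2182 CPM in mouse 2, with a median of 3484, to 4611 in mouse 3. Selplg (the P-selectin ligand) had 2638 ± 487 CPM, and Itgb2 (the shared chain of leukocyte integrins) 1864 ± 194 CPM.

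Of 30 genes of the interferon gamma response 29 were detected in all 8 libraries and 27 were at a mean of at least 10 CPM. Irf1, a transcription factor that interferon gamma induces, ranged from 1519 CPM in mouse 2, with a median of 2277, to 3385 in mouse 3. Gbp2, a guanylate-binding protein that attacks the membranes of intracellular microbes, ranged from 893 CPM in mouse 2, with a median of 1386, to 1737 in mouse 3. Ifi47 and Igtp, GTPases of the same defence, had 1219 ± 323 CPM and 712 ± 165 CPM (Igtp was named after its value was seen). The near-identical pair Tgtp1 and Tgtp2 is uncertain in its division, since reads could be assigned to either.

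Type I interferon response genes were detected in all libraries for 23 of 27 members. Irf7, the factor that drives interferon alpha genes, had 3773 ± 549 CPM, Isg15 (a ubiquitin-like modifier) 716 ± 176 CPM and Ifit3 1093 ± 269.7 CPM. Ifi27l2a ranged from 1160.3 CPM in mouse 2, with a median of 1634, to 2329 in mouse 5. Mx1 and Mx2 stood at 0.374 and 0.994 CPM and Ifi44l had no count (named after their values were seen). Several genes of these lists respond to both kinds of interferon, so the lists do not separate them.

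All 18 MHC class I genes were detected in all libraries. H2-D1 ranged from 11345 CPM in mouse 9, with a median of 24893, to 29832 in mouse 6, and without mice 5 and 9 its mean was 24842 ± 3653 CPM. H2-K1 had 8467 ± 1044 CPM, and Tapbp, which loads peptides, 2856 ± 545 CPM. The H2-Q genes are near-identical and their division is uncertain. Among MHC class II genes Cd74, the invariant chain, had 1668 ± 295 CPM, and the chains H2-Ab1 and H2-Eb1 111 ± 17.5 CPM and 47.5 ± 5.93 CPM.

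Among 17 checkpoint and costimulatory genes, 8 were detected in all libraries. Cd274, which encodes PD-L1, ranged from 559 CPM in mouse 2, with a median of 895, to 1440.2 in mouse 9, so that every library held it. Vsir (VISTA, an inhibitory receptor and ligand of myeloid cells) had 1210.0 ± 132 CPM and Lgals9 (galectin-9) 724 ± 95.1 CPM. Cd80 and Cd86, the ligands of CD28, stood at 31.7 and 2.41 CPM (named after their values were seen). Of 17 BCL2 family genes 12 were detected in all libraries. Pmaip1, which encodes the pro-death protein NOXA, had 331 ± 86.7 CPM, and the pro-survival Bcl2a1b and Bcl2a1a 221 ± 74.4 CPM and 180.4 ± 46.7 CPM, though the Bcl2a1 copies are near-identical and their division is uncertain. Mcl1, on which neutrophils depend for survival, had 112 ± 26.5 CPM and Bcl2 0.181 ± 0.256 CPM (named after their values were seen).

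Genes of the NF-kB response were all detected in all libraries (25 of 25). Nfkbia, the inhibitor that NF-kB itself induces, had 3469 ± 726 CPM, and ranged from 2589 CPM in mouse 7, with a median of 3470.2, to 4616 in mouse 3. Of 34 immediate early and stress genes 31 were detected in all 8 libraries. Zfp36, which destabilises cytokine mRNAs, was the highest per length at 1907 ± 276 CPM per kb. Fos had 2760.3 ± 874 CPM and Nr4a1 2371 ± 267 CPM. The heat-shock genes Hspa1a and Hspa1b stood at 10.2 and 14.7 CPM (named after their values were seen). Cells handled between tissue and sort are known to raise several of these genes, and the part of handling was not tested.

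Granulocyte transcription factors were detected in all libraries for 16 of 21 members. Junb and Fos, AP-1 subunits, and Mxd1, an antagonist of MYC that accompanies terminal differentiation, led per length at 1752 ± 951, 1174 ± 372 and 558 ± 348 CPM per kb. Cebpe, the regulator of secondary granule genes, stood at 7.72 CPM and Cebpa, a regulator of early progenitors, at 0.24 CPM, and Gata2 had no count (named after their values were seen).

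Markers of other cells were present in part. The 22 hepatocyte genes summed to 1146 to 5524 CPM, lowest in mouse 2 and highest in mouse 4, and 20 of them were detected in all libraries. Hpx (hemopexin) made up 1505 ± 1049 CPM of this, Trf (transferrin) 514 ± 230.3 CPM and Alb (albumin) 56.7 ± 45.4 CPM. The 12 Kupffer cell genes summed to 1229.7 to 1750.4 CPM, and 5 of them were detected in all libraries. Csf1r held 1436 CPM of this, Adgre1 (F4/80) 73.4, and the complement genes C1qb, C1qc and C1qa 14.2, 5.97 and 5.40 CPM. The defining markers Clec4f and Timd4 stood at 0.0624 and 0.0266 CPM, and Vsig4 had no count. Of 14 monocyte and dendritic cell genes 5 were detected in all libraries, and the list summed to 3954 to 5629 CPM. Nr4a1, Csf1r and Ly6c2 held 2371, 1436 and 1161 CPM of this, and Fn1 and Cx3cr1 16.7 and 11.4 CPM. The defining genes Ccr2 and F13a1 stood at 0.812 and 3.74 CPM, and Cd209a, a dendritic cell gene, had no count.

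The 17 T and NK cell genes summed to 12.2 to 25.9 CPM, with Cd3e at 0.38 CPM. Of the 12 B and plasma cell genes Ighm (the IgM heavy chain) stood at 101 ± 27.3 CPM per kb and Ms4a1 (CD20) at 0.233 ± 0.105. The 13 endothelial and stromal genes summed to 7.45 to 58.0 CPM, 6 cholangiocyte genes to 5.10 to 23.1 CPM, 7 erythroid genes to 111 to 606 CPM and 7 platelet genes to 6.99 to 25.2 CPM. Of 13 eosinophil, basophil and mast cell genes Prg2, Epx, Fcer1a and Ms4a2 had no count, and Siglecf stood at 9.44 CPM. The genes named here include defining markers of their cell types, and the part of other cells in the levels above was not tested.

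Variation between the 8 libraries was measured over the 4422 genes with a mean of at least 10 CPM, which held 97.79% of all counts. For each gene the biological coefficient of variation (BCV, the square root of the edgeR dispersion) gives the relative spread between mice beyond counting noise. Its median was 0.258, and 2626 of the 4422 genes lay under 0.3. A gene was called highly variable where its BCV was at least 2 times the trend of genes of the same abundance, which 200 genes met (4.52% of those tested). The genes just inside the threshold were Cmah and Arl8b both at a ratio of 2.00 to the trend, and those just outside were Pik3r2 and Kdm6a, both at 1.99. Without mice 5 and 9 the median BCV was 0.226 and 173 genes met the rule, 101 of them among the 200.

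**Figure D3:**
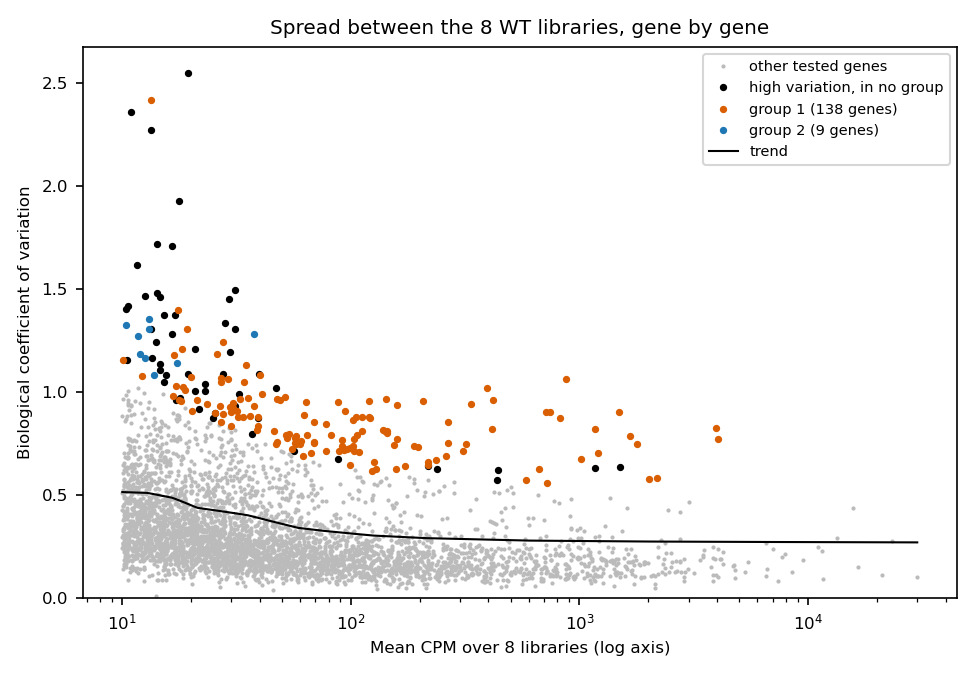
BCV between the 8 libraries (vertical axis) against mean CPM (horizontal log axis) for 4422 genes. The line is the fitted trend and large points are the 200 genes at least 2 times above it, of which 138 belong to group 1 (orange), 9 to group 2 (blue) and 53 to neither (black).

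Of the genes in the fixed lists, 341 were tested and 24 (7.04%) were highly variable, against 4.52% of all tested genes. Of the 24 genes, 22 moved together in 1 group, and Hpx and Alb stood outside it. The 22 were 8 regulators of transcription (Junb, Jun, Mxd1, Spi1, Hif1a, Relb, Nfkb2 and Nfkbiz), the immediate early gene Ier2, the growth arrest gene Gadd45a, the nucleotide kinase Cmpk2, the secreted glycoprotein Lrg1, the ligands Ltb, Csf1, Tgfb1 and Gdf15, and the receptor genes Ltbr, Ifnar2, Ifngr2, Tgfbr2, Csf2ra and Ltb4r1.

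Hierarchical grouping of the 200 genes by the correlation of their log2 levels placed 138 in this largest group, called group 1 here (mean correlation between its members 0.867), 9 in a second group and 53 in none. Group 1 came from 18 chromosomes with at most 14 of its genes on any 1 of them, and 137 of its members were protein-coding. Their summed level was 45405 CPM in mouse 2, 51711 in mouse 3, 26549 in mouse 4, 11668 in mouse 5, 46828 in mouse 6, 48845 in mouse 7, 57464 in mouse 8 and 4728 in mouse 9. Mouse 9 was thus lowest, mouse 5 next and mouse 4 in between. Of the 137 genes, 107 were lowest in mouse 9 and 19 in mouse 5, and 137, 136 and 125 lay below every library of mice 2, 3, 6, 7 and 8 in mice 9, 5 and 4. These counts describe genes that were grouped by the same values. Without mice 5 and 9 the largest group held 68 genes, 52 of them among the 138.

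**Figure D4:**
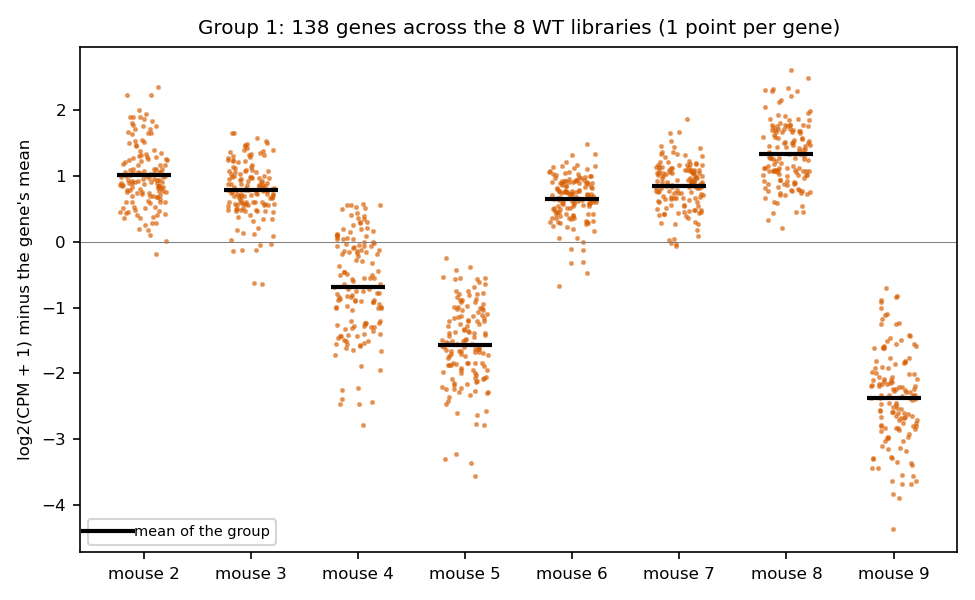
Log2 deviation of each of the 138 genes of the largest group from its mean over the libraries, on the log2(CPM + 1) scale, for mice 2 to 9. Points are genes and the black marks the mean of the group, which was lowest in mouse 9 (-2.37) and mouse 5 (-1.57) and highest in mouse 8 (1.33).

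Regulators in the group reached wide ranges. Junb stood at 3974 CPM in mouse 2, 7238 in mouse 3, 4409 in mouse 4, 1502 in mouse 5, 5162 in mouse 6, 5120.3 in mouse 7, 4546 in mouse 8 and 295 in mouse 9. Without mice 5 and 9 its mean was 5075 ± 1151 CPM, against 4031 ± 2188 CPM over all 8. Mxd1 ranged from 404 CPM in mouse 9, with a median of 4515, to 7119 in mouse 3, and its mean was 3945 ± 2462 CPM over all 8 and 5065 ± 1566 CPM without mice 5 and 9. Spi1, which encodes PU.1, the master regulator of myeloid cells, lay closest to the mean of the group and ranged from 70.3 CPM in mouse 9, with a median of 975, to 1292 in mouse 8. Its mean was 743 ± 501 CPM, and 959 ± 358 CPM without these 2 mice. Hif1a, the oxygen-sensing factor, ranged from 11.4 CPM in mouse 4, with a median of 34.2, to 119 in mouse 8, with 47.3 ± 39.1 CPM over all and 55.6 ± 42.4 CPM without them. Fos, the partner of Junb in AP-1, ranged from 2036 CPM in mouse 6, with a median of 2451, to 4596 in mouse 3 and was not in the group.

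Among signalling genes, Nfkbiz, a nuclear inhibitor-like protein that directs a part of the NF-kB response, ranged from 23.9 CPM in mouse 5, with a median of 387, to 954 in mouse 8, whereas Nfkbia ranged from 2589 CPM in mouse 7, with a median of 3470.2, to 4616 in mouse 3. Socs3, the feedback inhibitor of G-CSF and IL-6 signalling, ranged from 36.0 CPM in mouse 9, with a median of 483, to 807 in mouse 8. Gnai2, the G protein subunit through which chemoattractant receptors signal, ranged from 60.3 CPM in mouse 9, with a median of 701, to 2406 in mouse 8. In each of these 3 genes of the group mice 5 and 9 were the 2 lowest libraries. The means of Nfkbiz, Socs3 and Gnai2 were 393 ± 331 CPM, 417 ± 310.2 CPM and 869 ± 843 CPM over all 8 libraries and 511 ± 293 CPM, 539 ± 250.1 CPM and 1125 ± 824 CPM without mice 5 and 9.

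The 4 ligand genes of the group were lowest in mouse 9, with mouse 5 next. Ltb, a chain of lymphotoxin, ranged from 37.2 CPM in mouse 9, with a median of 846, to 1199.8 in mouse 6, and without mice 5 and 9 its mean was 925 ± 231 CPM. Csf1, the macrophage growth factor, ranged from 62.3 CPM in mouse 9, with a median of 358, to 935 in mouse 3. Tgfb1 ranged from 1.83 CPM in mouse 9, with a median of 56.9, to 86.5 in mouse 8, and Gdf15, a stress-induced cytokine, from 1.34 CPM in mouse 9, with a median of 18.02, to 40.1 in mouse 3. The means of Csf1, Tgfb1 and Gdf15 were 413 ± 309.9 CPM, 49.2 ± 33.1 CPM and 18.02 ± 14.4 CPM over all 8 and 522 ± 277 CPM, 63.6 ± 22.998 CPM and 23.3 ± 12.4 CPM without mice 5 and 9. Ltbr, the lymphotoxin receptor, was lowest in mouse 9, at 6.17 CPM against 68.2 to 210.1 in the rest. Both receptors for interferons in the group, Ifnar2 and Ifngr2, had 183 ± 45.6 CPM and 117 ± 51.0 CPM without mice 5 and 9, and 12.0 and 23.9 CPM in mouse 9. Their partner chains Ifnar1 and Ifngr1 were not in the group, and in mouse 9 they stood at 201 and 334 CPM.

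Members of the group also had transcripts with stretches rich in G and C, a feature that the grouping did not use. In each gene's longest coding transcript the 100-base window with the most G and C was found. Its median G and C content was 79% in the group (quartiles 77 and 81, range 69 to 88), against 72% (quartiles 67 and 77) over all tested genes, while transcript length had medians of 3006 and 2892 bases. The group held 0 of 197 genes with windows under 60%, 0 of 463 from 60 to under 65%, 2 of 895 from 65 to under 70%, 10 of 1062 from 70 to under 75%, 70 of 882 from 75 to under 80% (7.94%), 51 of 521 from 80 to under 85% (9.79%) and 4 of 195 at 85% or more (2.05%). Across all tested genes with windows of 80 to under 85%, the median deviation from the gene's mean on the log2(CPM + 1) scale was -0.364 in mouse 5 and -0.352 in mouse 9, against -0.112 in mouse 4 and 0.117 to 0.337 in the other 5. For windows of 75 to under 80% it was -0.225 in mouse 5 and -0.239 in mouse 9, and at 85% or more 0.0098 and 0.0705. For windows under 60% it was 0.313 in mouse 9 and -0.067 in mouse 5. These medians keep the members of the group, which were grouped by the same values. The part of sequence composition, RNA quality or amplification in these levels was not tested.

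**Figure D5:**
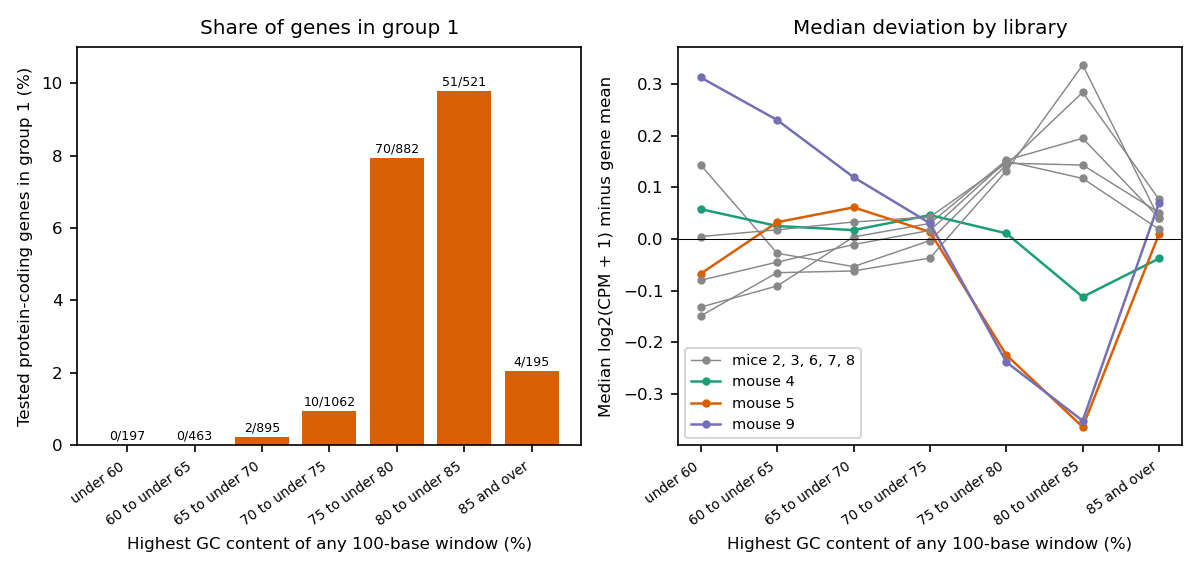
G and C content of the richest 100-base window and level. The panels give, for bins of window content in percent, the share of tested genes that belong to the largest group and the median log2 deviation of mice 5 and 9 beside the other libraries, and the share is highest from 75 to under 85%.

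The windows below are examples from inside coding sequence, where 40 of the 137 windows of the group lay (29.2%, against 28.07% of the 4215 tested coding genes with a placed window). More lay upstream of the coding sequence, 68 of the 137 (49.64%, against 45.5% of the 4215). Capitals mark G and C, the strand is that of the transcript, and positions are on GRCm38. The first 3 genes belong to the group, though the windows of Lrg1 and Csrnp1 lie below its lower quartile of 77%. The other 3 are abundant genes that do not belong to it. Lrg1 is shown from chr17:56120644-56120743 on the minus strand in exon 2 of 2 (74%), Csrnp1, with Txnrd1 one of the 2 members with the lowest content, from chr9:119973438-119973537 on the minus strand in exon 3 of 4 (69%), and Ltb from chr17:35195846-35195945 on the plus strand in exon 3 of 3 (79%). Ftl1 is shown from chr7:45458125-45458224 on the minus strand in exon 4 of 4 (68%), Actb from chr5:142905574-142905673 on the minus strand in exon 2 of 6 (70%) and Retnlg from chr16:48874241-48874340 on the plus strand in exon 4 of 4 (57%).
Lrg1: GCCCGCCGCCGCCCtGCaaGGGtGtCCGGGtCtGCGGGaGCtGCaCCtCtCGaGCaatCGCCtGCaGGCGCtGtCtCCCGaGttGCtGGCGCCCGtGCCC
Csrnp1: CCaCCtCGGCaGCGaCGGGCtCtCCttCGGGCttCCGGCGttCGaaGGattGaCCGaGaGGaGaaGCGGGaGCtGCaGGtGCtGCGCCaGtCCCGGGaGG
Ltb: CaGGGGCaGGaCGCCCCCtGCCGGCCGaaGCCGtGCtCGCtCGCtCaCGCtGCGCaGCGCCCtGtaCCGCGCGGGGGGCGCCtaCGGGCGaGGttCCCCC
Ftl1: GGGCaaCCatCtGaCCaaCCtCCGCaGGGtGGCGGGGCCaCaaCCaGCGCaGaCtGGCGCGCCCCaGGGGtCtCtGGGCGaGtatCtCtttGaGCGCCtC
Actb: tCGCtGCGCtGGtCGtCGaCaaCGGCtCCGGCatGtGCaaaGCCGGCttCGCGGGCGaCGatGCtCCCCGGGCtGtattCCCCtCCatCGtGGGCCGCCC
Retnlg: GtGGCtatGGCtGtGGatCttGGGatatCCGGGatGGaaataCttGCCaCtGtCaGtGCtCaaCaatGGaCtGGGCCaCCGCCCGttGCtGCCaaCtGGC

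The windows of Csrnp1 (69%) and Actb (70%) are close in content, and Csrnp1 alone is in the group. Actb ranged from 17537 CPM in mouse 3, with a median of 21637, to 24173 in mouse 5, and Csrnp1 from 181 CPM in mouse 9, with a median of 761, to 1353 in mouse 3. CpG dinucleotides were counted in promoters: 98 of 109 group members matched in the RefSeq promoter table (GRCm38), or 89.9%, held at least 10 CpG in the 300 bases from upstream to just past their start, against 2745 of 3390 tested coding genes (81.0%), 11 of 24 of the 30 most abundant (45.8%) and 43.5% of all promoters in the table.

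The second group held 9 genes, each at most 0.194 CPM in mouse 5 with maxima of 22.1 to 92.8 CPM. Sec23a, a coat protein of vesicles leaving the endoplasmic reticulum, ranged from 0 CPM in mouse 5, with a median of 11.2, to 27.9 in mouse 8. Dcun1d1, which helps attach NEDD8 to cullins, ranged from 0 CPM in mouse 5, with a median of 12.1, to 22.1 in mouse 6, and Zmym2, a zinc finger protein, from 0.145 CPM in mouse 5, with a median of 18.6, to 39.7 in mouse 8. The others were Erlin1, Trak2, Dync1li2, Slc39a9, Lin28a and Hmgcs1. They have low means, and the mean correlation between them was 0.851. The group was drawn with mouse 5 in it. Without mice 5 and 9 the means of Sec23a, Dcun1d1 and Zmym2 were 15.3 ± 9.46 CPM, 14.1 ± 4.74 CPM and 19.4 ± 12.9 CPM, against 13.0 ± 9.62 CPM, 11.9 ± 6.36 CPM and 17.3 ± 13.0 CPM over all 8.

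Among the 53 highly variable genes in no group were secreted liver proteins, mitochondrial transcripts and clock genes. Hpx ranged from 563 CPM in mouse 2, with a median of 1141, to 3143 in mouse 5, and Alb from 14.2 CPM in mouse 2, with a median of 36.7, to 152 in mouse 4. The mitochondrial mRNAs mt-Nd2, mt-Nd4, mt-Atp6 and mt-Atp8 were in this set, and mt-Nd4 ranged from 152 CPM in mouse 8, with a median of 379, to 1161 in mouse 4. Per2 and Cry1, repressors of the circadian clock, ranged from 1.95 CPM in mouse 2, with a median of 15.1, to 109 in mouse 4 and from 0.729 CPM in mouse 3, with a median of 4.29, to 50.9 in mouse 9. Without mouse 4 the mean of Per2 was 0.644 times that over all 8. The genes of this paragraph other than Hpx, Alb and Per2 were named after their values were seen.

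In 4 fits, edgeR's quasi-likelihood test asked which genes moved in proportion to a measure of the library, over 8 libraries with 6 residual degrees of freedom. The first 2 used the mean log2 level of the later granule genes and of the interferon gamma genes, and both called 0 genes at a Benjamini-Hochberg adjusted p under 0.05 (0 of 4407 and 0 of 4395, or 0%), with 304 and 277 genes at an unadjusted p under 0.05. DESeq2 called 24 and 20 genes and limma-voom 0 and 6 for the same measures. In the granule fit 2121 of 4407 genes had a positive slope. Among the lists, this held for none of the 27 tested interferon gamma genes, of which 19 had an unadjusted p under 0.05, for 2 of 18 MHC class I genes, 1 of 25 NF-kB genes and 1 of 23 type I interferon genes. Positive slopes were few in other lists too: 5 of 28 cytokine receptor genes, 4 of 29 immediate early and stress genes and 1 of 10 BCL2 family genes. They were found for 9 of 16 chemoattractant receptor genes and 5 of 8 phagocyte oxidase genes. A positive slope also held for 15 of 24 neutrophil identity genes and for 16 of 16 hepatocyte genes, of which 0 had an unadjusted p under 0.05. Genes of 1 list come from the same 8 libraries, so these counts are not separate evidence.

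Genes for secreted liver proteins rose with the summed hepatocyte transcripts. The fit called 15 of 4406 genes (0.34%), 14 that rose (0.318%) and 1 that fell (0.0227%). Serpina1d, an inhibitor of proteases, rose by a log2 slope of 1.03 (SE 0.103) per doubling of the hepatocyte sum, with an adjusted p of 0.00258. Vtn, Itih4, Pzp, Kng1 and Saa2, all proteins that the liver secretes into plasma, had slopes of 0.93 to 1.30, with adjusted p from edgeR of 0.00801 to 0.0193. F2, Saa1, Orm1, Orm2, Cp, Agt and Apof, which are secreted liver proteins too, and mt-Nd5 also rose, and Zbtb37 fell (slope -3.93, SE 0.683). Limma-voom did not call Zbtb37 (slope -1.67, adjusted p = 0.604) or Agt (adjusted p = 0.151), and with library totals Agt, Orm2 and Apof were not called. The count changed with single libraries: the fit called 2 genes without mouse 4 or without mouse 5, 5 genes without mouse 6, 7 without mouse 3, 8 without mouse 2, and 3 without mice 5 and 9. Serpina1d was called in each of these fits. Its close relatives Serpina1a, Serpina1b and Serpina1c belong to the hepatocyte sum, and reads may be shared between them and Serpina1d. Its slope is therefore not independent of the sum.

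The mitochondrial share of the library called 4 of 4409 genes (0.0907%), all rising: mt-Rnr1 and mt-Rnr2, the mitochondrial ribosomal RNAs, and the nuclear copies of mitochondrial sequence Gm10925 and Gm28437, whose reads may be shared with mitochondrial transcripts. The slope of mt-Rnr2 was 1.05 (SE 0.145, edgeR adjusted p 0.0158). Without mouse 4, which held the highest share, 0 genes were called, and 1 gene, Gm10925, was called without mouse 3 or without mouse 8. Without mouse 7 mt-Rnr2 was not called (adjusted p = 0.0544 from edgeR).

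Finally, 13 measures of the libraries were compared in 78 pairs over the 8 mice. None passed an adjusted p of 0.05 in exact permutation tests (two-sided), by Pearson's r or Spearman's rho, and 10 pairs had an unadjusted p under 0.05. The pair with the smallest p set the later granule genes against the interferon gamma genes, with r = -0.912 (exact permutation p = 0.000794, adjusted p = 0.0619) and rho = -0.905 (exact permutation p = 0.00456, adjusted p = 0.178). Leaving out mice 2 and 3, farthest from the median granule level, gave r = -0.862, and leaving out mice 5 and 9 gave r = -0.931. Granule genes against NF-kB genes gave r = -0.887 (exact permutation p = 0.00312, adjusted p = 0.0941), and rho = -0.833. Scaled by library totals, this pair gave r = -0.693 (exact permutation p = 0.0578, adjusted p = 0.375). The granule and interferon gamma pair then gave r = -0.888. These measures are relative levels from the same libraries, and the part of that shared scale in the correlations was not tested. The direction was the same in all 8 fits that left out 1 library for the granule and interferon gamma pair, with r from -0.934 to -0.875.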

How the data were processed

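RNA from sorted liver neutrophils was sequenced by the submitters. The deposited table holds estimated counts per gene as whole numbers, made with Salmon 0.14.2 and DESeq2 1.22.1 on mm10 per the submitters' processing notes, and its annotation is not given in the sources used here. Only the 8 wild-type columns were used, 1 per mouse. Of 54532 gene identifiers 21901 had a count, and all but 37 were found in GENCODE M21 (GRCm38), which gave names, exon lengths and transcripts. Rows not named in that annotation took 0.000341% of counts on average.

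Counts were scaled with TMM in edgeR 4.0.16 (R 4.3.3) within the 8 libraries. The level per length divides CPM by the merged exons in kb. Genes with a mean of at least 10 CPM were tested. Gene-wise dispersions (no prior) were compared with their trend, and highly variable genes were grouped by average linkage at a correlation of 0.7, with groups of at least 8 genes. The 4 slope fits used the edgeR quasi-likelihood test with Benjamini-Hochberg adjustment, leaving each list's own genes out of its fit. Library measures were compared with exact permutation tests (scipy 1.17.1). The scripts were tested on simulated data.

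Named genes were the 30 most abundant per length, up to 5 highest members of each of 32 lists (619 of 621 genes matched) and every highly variable member, the 25 most variable genes, up to 6 members of each group and up to 6 called genes of each fit per direction. The members and lists were chosen with earlier results of these data known. Alternatives covered scaling, filters, length, DESeq2 1.42.0, limma 3.58.1 and leaving out each library. Leaving out mice 5 and 9 was added after seeing the data. Libraries of 13073700 to 21725300 counts give high precision at 10 CPM (over 100 counts), without molecular identifiers and with no statement on strand, so counting limits cover counting error only and overlapping or near-identical genes are uncertain.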

Additional observations from a re-analysis of the deposited data

Results flagged for a closer look

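Each value below was the highest or lowest of the 8 libraries and stood apart from the other 7 by a gap that Dixon's test passes at its 95% level, with genes compared on the log2(CPM + 1) scale and library measures in percent of counts. Of 189 genes and library measures examined 14 were flagged. Chance flags about 1 in 20 such groups where they were not chosen by their values. Some genes were examined because they varied most or belonged to a group drawn from these values, so that rate does not hold for them. Dcun1d1 and Ltbr came in this way, and their flags restate the choice. On CPM not put on a log scale, 13 of the 180 genes would stand apart, and 5 of the 12 genes below are among them, namely Fth1, Il1b, Eno1, Fpr1 and Zbp1.

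Mouse 9 held 6 of the flags. H2-D1, an MHC class I heavy chain, stood at 11345 CPM against 19056 to 29832 in the other libraries, and Fth1, the ferritin heavy chain, at 4022 CPM against 14608 to 20182. Ncf1, an oxidase subunit, stood at 1432 CPM against 2208 to 2961, and Ltbr, the lymphotoxin receptor, at 6.17 CPM against 68.2 to 210.1. Il1b was higher in mouse 9, at 11619 CPM against 6196 to 8122 elsewhere. The richest window described above held 77% G and C in H2-D1, Fth1 and Ncf1, 82% in Ltbr and 57% in Il1b. Over the 4215 tested coding genes its median was 72% (quartiles 67 and 77). In group 1, from which a part of the examined genes came, it was 79%. Across all tested genes the median log2 deviation in mouse 9 was -0.239 for windows of 75 to under 80%. It was -0.352 for 80 to under 85% and 0.313 for windows under 60%. Ctsd (78%) and H2-K1 (76%) were not flagged. The part of sequence composition in these flags was not tested. Long non-coding RNAs (intergenic, antisense and related classes) took 1.65% of counts in mouse 9 (1.651) and 1.02 to 1.26% in the others.

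Mouse 2 was lowest for the G-CSF receptor Csf3r (3795 CPM against 4564 to 5265), for the metal pump Slc11a1 (981 CPM against 1181 to 1394) and for the nucleic acid sensor Zbp1 (712 CPM against 971 to 1201). In mouse 3 the glycolytic enzyme Eno1 was highest, at 3226 CPM against 2165 to 2587, and the formyl peptide receptor Fpr1 lowest, at 1096 CPM against 1646 to 1996. In mouse 5 Dcun1d1 had 0 CPM against 8.88 to 22.1, and the endothelial scavenger receptor Stab1 stood at 1.55 CPM against 18.9 to 50.1. Mitochondrial mRNAs took 1.189% of counts in mouse 4, against 0.294 to 0.660% in the others.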

How the results depend on the processing

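Mean levels of the 217 genes that the naming rule gave were 0.964 to 1.03 times the reported ones with library totals or DESeq2 size factors. Leaving out 1 library, or mice 5 and 9, moved 11 of them by over 1.5 times, all with means of at most 31.01 CPM, and of these the report names Per2 (without mouse 4). Without division by length, or with the median transcript length, 19 of the 30 most abundant genes were shared. With a minimum mean of 1 CPM the median BCV was 0.431, the first principal component held 26.3% of variance and 414 genes were highly variable, and with 50 CPM these were 0.193, 58.1% and 105, by the construction of testing more or fewer genes. At 1.5 times the trend 439 genes were highly variable. Without mice 5 and 9 (chosen after seeing the data) the median BCV was 0.226, the first component held 33.5%, against 40.1% with all, and the largest group held 68 genes. DESeq2's Wald test called 24 genes with the granule measure, 20 with the interferon gamma measure, 81 with hepatocyte transcripts and 12 with the mitochondrial share, and limma-voom called 6 with the interferon gamma measure, where the cause was not tested. Hepatocyte transcripts called 3 genes without mice 5 and 9. With 1 library left out at a time the median biological coefficient of variation ran from 0.245 to 0.265, the variance share of the first principal component from 39.5% to 44.9%, highly variable genes from 187 to 216, the largest group from 113 to 151 genes, hepatocyte calls from 2 (without mouse 4 or 5) to 21 (without mouse 9), mitochondrial calls from 0 (without mouse 4) to 4, and correlations passing adjustment from 0 to 1 (without mouse 5 or mouse 6). Of the 15 genes called with hepatocyte transcripts, library totals lost Agt, Orm2 and Apof (12 called), limma-voom lost Agt and Zbtb37, and edgeR's count filter alone lost Apof and did not test Zbtb37. No paired analysis was possible because the libraries described belong to 1 group, with 1 library per mouse. Depth limits genes near 0.0221 CPM, where 3 counts over the 8 libraries are expected.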
